A study of Mus musculus with 4 samples.

Results

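The genes described here are 35 genes of the cell cycle and of proliferation, and they were chosen by name. All 35 were found on the array, on 55 probes, among 26518 gene names. The brightest probe without an outlier mark stood for a gene with several probes. Liver RNA came from male C57BL/6J mice bought at 8 weeks of age and made obese by a high-fat diet for 14 weeks (diet-induced obesity, DIO, body weight of at least 40 g). Every mouse, controls included, was fed this diet, and the labels name no genetic change. Mice of the treated group received intranasal porcine GALP (1-60), galanin-like peptide, a hypothalamic neuropeptide, given as 1 nmol in saline with 5% α-cyclodextrin. Control mice received saline, and both groups were given 2 µL once daily for 11 days. Livers of 4 treated mice that lost more weight gave 1 pool of RNA (the greater-loss pool), livers of 4 that lost less gave another (the less-loss pool), and livers of 8 saline mice gave the control pool. Each GALP pool was set against the control pool on 2 dual-colour arrays with the dyes Cy3 and Cy5 exchanged, which gave 4 arrays. Both arrays of a pool held the same RNA, so n = 2 GALP pools. The control pool is 1 sample and is shared by both pools, and its own spread enters no error given here.

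The cell cycle runs through G1, S, G2 and M phase and is driven by cyclins that switch on cyclin-dependent kinases. Cyclins D and E release the E2F factors from the RB proteins, and these turn on the genes of DNA replication. Cyclins A and B with CDK1, the polo-like and aurora kinases and the anaphase-promoting complex then carry the cell through mitosis. Most hepatocytes of the adult liver rest outside the cycle, and they re-enter it when liver tissue is lost.

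A log2 ratio is GALP over control, and positive values mean more RNA in the GALP pool. A gene counts as measured when 1 or both channels of each array put its probe well above background, and 25 of the 35 genes were measured (of all gene names, 11397). Of the 25, 24 were well above background in all 8 channels. In bulk liver, fewer cells of a type and less RNA per cell cannot be told apart.

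Promoter sequences are shown for the genes that kept 1 direction on all 4 arrays, to set the elements that cell cycle genes share beside the ratios. RefSeq promoter windows (GRCm38.p6) matched 28 of the 35 genes by symbol, and 6 of the 7 genes that kept 1 direction. Ccnd1 had no entry. Each sequence holds the 250 bases before the annotated start, written 5′ to 3′ on the strand of the gene. For Prc1, the window with the lower coordinates of a pair is shown. Capitals mark matches, on either strand, to CCAAT (the CCAAT box), TTTGAA (the CHR element of mitotic genes), TTTNNCGC (an E2F site) and GGGCGG (the GC box). No matches overlapped in these windows.
Ccne1 (chr7:38107491-38107740, minus strand): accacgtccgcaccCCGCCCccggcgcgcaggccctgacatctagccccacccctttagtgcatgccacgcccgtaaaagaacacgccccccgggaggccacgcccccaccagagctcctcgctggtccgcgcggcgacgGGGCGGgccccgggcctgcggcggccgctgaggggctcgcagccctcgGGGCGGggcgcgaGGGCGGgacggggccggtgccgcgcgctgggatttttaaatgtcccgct
Tk1 (chr11:117826015-117826264, minus strand): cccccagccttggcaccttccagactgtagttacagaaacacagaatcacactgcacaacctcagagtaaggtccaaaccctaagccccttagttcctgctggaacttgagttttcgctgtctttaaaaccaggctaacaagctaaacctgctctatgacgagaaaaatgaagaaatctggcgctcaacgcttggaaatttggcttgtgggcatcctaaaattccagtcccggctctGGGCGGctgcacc
Birc5 (chr11:117848987-117849236, plus strand): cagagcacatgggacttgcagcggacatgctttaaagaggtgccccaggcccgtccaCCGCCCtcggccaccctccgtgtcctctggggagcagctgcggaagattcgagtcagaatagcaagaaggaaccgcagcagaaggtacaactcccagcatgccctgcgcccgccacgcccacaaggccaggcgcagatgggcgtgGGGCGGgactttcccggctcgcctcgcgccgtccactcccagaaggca
Prc1 (chr7:80294201-80294450, plus strand): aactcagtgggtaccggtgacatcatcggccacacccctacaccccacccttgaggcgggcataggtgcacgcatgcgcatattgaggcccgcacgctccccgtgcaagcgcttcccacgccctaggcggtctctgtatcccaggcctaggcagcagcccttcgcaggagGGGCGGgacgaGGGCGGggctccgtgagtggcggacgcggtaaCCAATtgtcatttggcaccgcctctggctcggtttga
Mki67 (chr7:135716380-135716629, minus strand): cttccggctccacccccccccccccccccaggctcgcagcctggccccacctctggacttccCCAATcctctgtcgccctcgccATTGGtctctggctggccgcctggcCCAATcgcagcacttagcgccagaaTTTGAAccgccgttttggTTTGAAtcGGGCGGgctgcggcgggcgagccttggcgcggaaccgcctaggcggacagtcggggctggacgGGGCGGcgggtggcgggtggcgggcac
Mcm3 (chr1:20820313-20820562, minus strand): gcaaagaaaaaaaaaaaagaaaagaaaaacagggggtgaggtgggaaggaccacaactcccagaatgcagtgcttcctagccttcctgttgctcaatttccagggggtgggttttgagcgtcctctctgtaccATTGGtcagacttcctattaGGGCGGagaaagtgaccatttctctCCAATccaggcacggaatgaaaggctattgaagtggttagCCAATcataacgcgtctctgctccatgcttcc

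Over the 30 windows of the 28 genes, a CCAAT box lay in 76.7%, beside 33.8% of all 32851 windows of this length. A CHR element lay in 30% of the windows and in 16% of all. An E2F site lay in 16.7% and in 4.28% of all, and a GC box in 76.7% and in 32.7% of all. Of the genes shown, Mki67 held 2 CHR elements and 3 CCAAT boxes, and Mcm3 held 3 CCAAT boxes. The Prc1 window shown held no CHR element, and the other window of that gene held 1. Ccne1, Tk1 and Birc5 held GC boxes and none of the other motifs, and none of the 6 windows held an E2F site as spelled here. A match is a description of the letters and not of binding, and a missing match says only that these letters are not in the window.

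None of the 25 measured genes was called in either direction by the rule of the methods. This rule was read strictly, as asking both pools for a ratio above 1.5 or below 0.75, with 1 direction throughout and, on each of the 4 arrays, a p-value under 0.01 from the scanner software Feature Extraction. Over all measured genes it called 0.175% higher and 0.342% lower. Without the p-value, 0 of the 25 passed in either direction, beside 0.404% of all measured genes higher and 1.45% lower. With limma on the ratios of both pools, 0 of the 25 had an adjusted p under 0.05, as did 0% of the 41037 probes. The smallest adjusted p of a measured cell cycle gene was 0.374 (limma). This was also the smallest over all 41037 probes, so it does not set these genes apart. Of the 25, 4 (Ccna2, Plk1, Kif20a and Mki67) had an unadjusted limma p under 0.05, beside 20.1% of all measured genes.

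The ratios of these genes were small, and most lay above 0. Their median log2 ratio was 0.14, with a range of -0.11 to 0.49, beside a median of -0.01 over all measured genes. Over the 24 genes well above background in all 8 channels it was 0.12, beside -0.01 over all genes of that kind. The mean of the pools was above 0 for 23 of the 25 genes, and for 45.8% of all measured genes. Both pools lay above 0 for 16 of the 25 (64%), beside 30.8% of all, and both lay below 0 for 2, Mcm3 and Mcm7, beside 37.4% of all. The median was 0.22 in the greater-loss pool and 0.10 in the less-loss pool, and 1 pool of each kind allows no test of that difference. The size of the excess depended on the processing. The normexp alternative adds an offset of 50 to both channels, which by construction draws the ratios of dim probes toward 0. The part of the offset in the values below was not tested. With normexp and loess in place of the processed values, the median was 0.06 beside 0.00 over all genes, and the mean was above 0 for 20 of the 25 beside 48.6% of all.

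**Figure D1:**
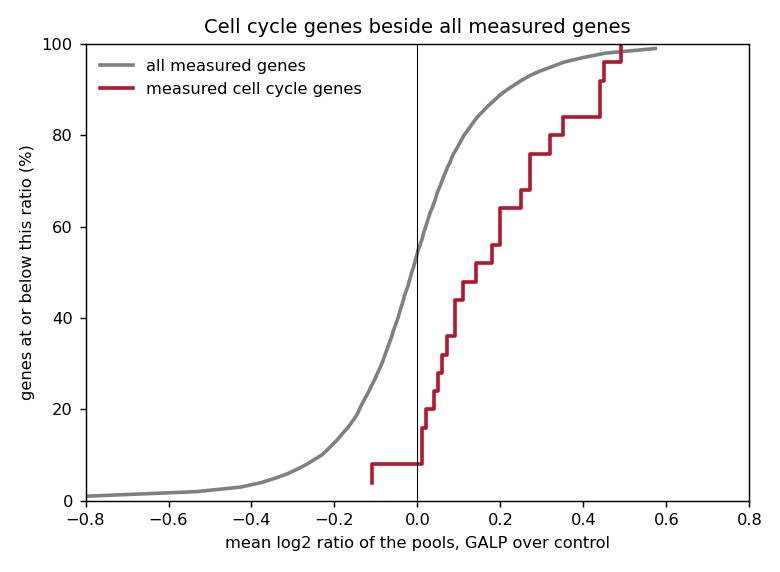
Share of genes (vertical axis, %) at or below each mean log2 ratio of the pools (horizontal axis, GALP over control), for the 25 measured cell cycle genes (red steps) and all 11397 measured genes (grey line, percentiles 1 to 99). The red steps lie to the right of the grey line over most of the range, with medians of 0.14 and -0.01, and the rightmost red step is at 0.49.

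Higher on all 4 arrays were 6 of the 25 genes (24%), Ccnd1, Ccne1, Tk1, Birc5, Prc1 and Mki67, beside 12.8% of all measured genes. Lower on all 4 was 1 gene (4%), Mcm3, beside 14.5% of all. With each array centred on its median, the same 6 genes and Mcm3 kept their direction. There 8 of the 25 genes were higher on all 4 arrays, beside 15.3% of all, and 1 lower. With normexp and loess, 9 were higher, beside 12.2% of all, and 0 lower, beside 11.8% of all. The 9 held 5 of the 6 genes. There Prc1 was at -0.03 on 1 array and Mcm3 at 0.01 on 1 array.

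**Figure D2:**
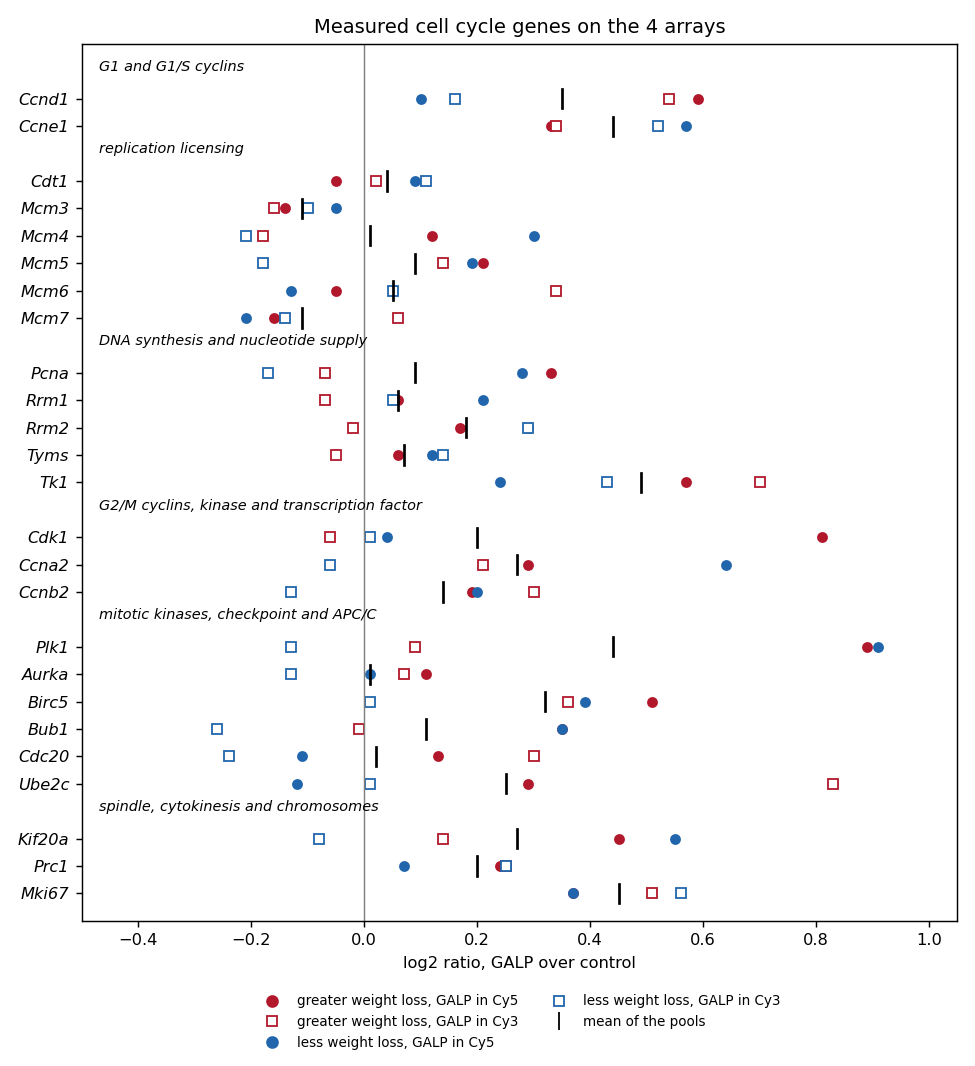
Log2 ratio of GALP over control (horizontal axis) on each of the 4 arrays for the 25 measured genes, grouped by role, with circles for GALP in Cy5, squares for GALP in Cy3, red for the greater-loss pool and blue for the less-loss pool, and a black bar at the mean of the pools. All 4 points lie right of 0 for Ccnd1, Ccne1, Tk1, Birc5, Prc1 and Mki67, and left of 0 for Mcm3.

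Both measured cyclins of G1 and the G1/S step were higher on all 4 arrays. Ccnd1, cyclin D1, the partner of CDK4 and CDK6 in early G1 (S78355, probe at chr7:152116173-152116232 on mm9), had log2 ratios of 0.59 and 0.54 in the greater-loss pool and 0.10 and 0.16 in the less-loss pool, the array with GALP in Cy5 first. The excess lay mainly in the greater-loss pool, and whether the pools differ was not tested. The mean was 0.35 ± 0.31 (SD, n = 2 pools), a 1.27-fold ratio with an adjusted p of 0.702 (limma). On the array with GALP in Cy5, the processed signals were 1750 for GALP and 1166 for control in the greater-loss pool, and 1187 and 1110 in the less-loss pool. Ccne1, cyclin E1, the partner of CDK2 at entry into S phase (NM_007633, chr7:38882937-38882960), had 0.33 and 0.34 in the greater-loss pool and 0.57 and 0.52 in the less-loss pool. Here the less-loss pool was the higher one, the reverse of Ccnd1. The mean was 0.44 ± 0.15 (1.36-fold, adjusted p 0.474, limma), and with normexp and loess it was 0.18. The other cyclin E gene, Ccne2, was well above background in 1 of 4 GALP and 1 of 4 control channels and has no ratio that can be read.

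The licensing factors load the MCM helicase onto replication origins in G1. Of these 8 genes 6 were measured, and their mean log2 ratios lay between -0.11 and 0.09 with a median of 0.02. Mcm3, a subunit of the helicase (AK088142, chr1:20793119-20793178), had -0.14 and -0.16 in the greater-loss pool and -0.05 and -0.10 in the less-loss pool. All arrays were below 0. The mean was -0.11 ± 0.06 (0.92-fold, adjusted p 0.573, limma). A dimmer probe of the same gene (NM_008563, chr1:20795363-20795879) had 0.36, 0.45, 0.01 and -0.73 in the same order, so the direction of Mcm3 rests on the probe. Mcm7, another subunit, had a mean of -0.11 ± 0.09, and Mcm4, Mcm5, Mcm6 and the loading factor Cdt1 had means between 0.01 and 0.09 with arrays on both sides of 0. Mcm2 was well above background in 1 of 8 channels, and the loading factor Cdc6 in 0 of 8.

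All 5 genes of DNA synthesis and nucleotide supply were measured, and Tk1 stood apart from the other 4. Tk1, the thymidine kinase whose RNA and protein accumulate in S phase (NM_009387, chr11:117677105-117677164), had log2 ratios of 0.57 and 0.70 in the greater-loss pool and 0.24 and 0.43 in the less-loss pool. Every array was above 0, and the greater-loss pool was the higher one. The processed signals were 2404 against 1616 and 2328 against 1428 on the arrays of the greater-loss pool, GALP against control, and 2041 against 1728 and 1903 against 1410 on those of the less-loss pool. The mean was 0.49 ± 0.21 (1.40-fold, adjusted p 0.525, limma), the highest of the 25 genes. It was 0.49 with normexp and loess and 0.51 with centring.

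Feature Extraction gave Tk1 p-values of 0.0066 and 0.00099 in the greater-loss pool and 0.24 and 0.038 in the less-loss pool. Such a p-value compares the RNA on 1 array and not the treatments. On its own, the greater-loss pool met the fold and p rule for Tk1 and for no other measured cell cycle gene, beside 0.79% of all measured genes higher and 1.06% lower. The less-loss pool alone met it for none, beside 0.632% higher and 0.965% lower. Whether the pools differ for Tk1 was not tested.

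The other genes of this group lay close to 0. The sliding clamp of the replication fork, Pcna, had a mean of 0.09 ± 0.05, and the ribonucleotide reductase subunits Rrm1 and Rrm2 had 0.06 ± 0.10 and 0.18 ± 0.16. Thymidylate synthase, Tyms, had 0.07 ± 0.09, and its dimmer measured probe had 0.03. All 4 had at least 1 array below 0.

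**Figure D3:**
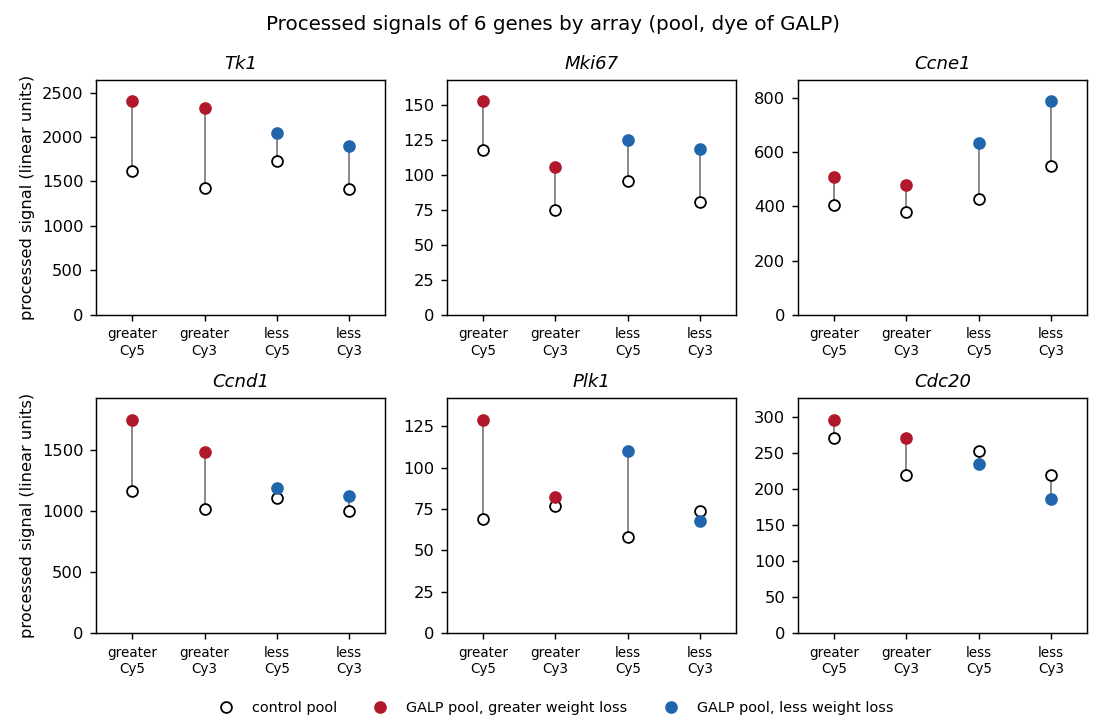
Processed signal in linear units (vertical axis, from 0) of the GALP pool (filled points) and the control pool (open points) on each array (horizontal axis, pool and dye of GALP) for Tk1, Mki67, Ccne1, Ccnd1, Plk1 and Cdc20, with scales set per gene. The filled point is above the open one on all 4 arrays for Tk1, Mki67, Ccne1 and Ccnd1, mainly on the Cy5 arrays for Plk1, and only in the greater-loss pool for Cdc20.

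The genes of G2 and of entry into mitosis had means above 0, but none kept 1 direction on all arrays. Cyclin A2, Ccna2, had a mean of 0.27 ± 0.03, with 0.29, 0.21, 0.64 and -0.06 on the arrays, so the arrays of a pool lay farther apart than the pools did. Cyclin B2, Ccnb2, had 0.14 ± 0.14. The mitotic kinase Cdk1 was well above background in 3 GALP and 2 control channels, with 0.81 on 1 array and values from -0.06 to 0.04 on the other 3. Ccnb1 and Foxm1, cyclin B1 and the transcription factor of G2/M genes, were well above background in 0 of 8 channels.

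Among the mitotic kinases and checkpoint genes, Birc5 was the gene that was higher on all 4 arrays. Birc5, survivin, a subunit of the chromosomal passenger complex (NM_001012273, chr11:117716959-117717018), had 0.51 and 0.36 in the greater-loss pool and 0.39 and 0.01 in the less-loss pool. Its lowest array was at 0.01, so the direction on that array rests on a ratio near 0. The mean was 0.32 ± 0.17 (1.25-fold, adjusted p 0.571, limma). Its kinase partner Aurkb was well above background in 0 of 8 channels.

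Cdc20, the activator of the anaphase-promoting complex (NM_023223, chr4:118105536-118105595), had 0.13 and 0.30 in the greater-loss pool and -0.11 and -0.24 in the less-loss pool. It was the only measured cell cycle gene with opposite directions in the pools on both arrays of each, and the difference was not tested. With normexp and loess the opposite directions were gone, at 0.12 and 0.01 in the pools. The ubiquitin-conjugating enzyme of the same complex, Ube2c, had 0.29 and 0.83 in the greater-loss pool and -0.12 and 0.01 in the less-loss pool. The aurora kinase Aurka had a mean of 0.01 ± 0.11, and the checkpoint kinase Bub1 had 0.11 ± 0.09. Bub1b, its relative, was well above background in 0 of 8 channels.

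Mki67 and Prc1 were higher on all 4 arrays among the genes of the spindle, cytokinesis and chromosomes. Mki67 encodes Ki-67, the chromosome surface protein used as a stain for cycling cells (NM_001081117, chr7:142881591-142881650). Its log2 ratios were 0.37 and 0.51 in the greater-loss pool and 0.37 and 0.56 in the less-loss pool. The pools were nearly equal. The mean was 0.45 ± 0.02 (1.37-fold, adjusted p 0.374, limma). The processed signals ran from 106 to 153 for GALP and from 75 to 118 for control, and with normexp and loess the mean was 0.07, though all arrays stayed above 0. Prc1, which bundles the microtubules of the central spindle (AK088576, chr7:87461038-87461093), had 0.24, 0.25, 0.07 and 0.25, with a mean of 0.20 ± 0.06 and an adjusted p of 0.455 (limma). With normexp and loess its mean was 0.03.

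Kif20a, a kinesin of cytokinesis, had a mean of 0.27 ± 0.04 at its brighter probe and 0.30 at the other measured one. Both probes were above 0 with GALP in Cy5 and at or below 0.14 with GALP in Cy3. With normexp and loess, the mean of the brighter probe was 0.07. The topoisomerase Top2a was well above background in 0 of 8 channels. The spindle motor Kif11 was so in 3 of 8 channels, and the spindle protein Nusap1 in 5 of 8. In the less-loss pool, Nusap1 passed background in 1 GALP channel and no control channel, and its processed signals put the limit at 1.32-fold with GALP. That limit leaves out noise, and Feature Extraction gave p-values of 0.14 and 0.59 there. A dimmer probe of Nusap1 had -1.73 and 1.23 in this pool, so no direction is read. In the greater-loss pool the brighter probe had -0.10. Kif11 allowed no fold in the less-loss pool.

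The gap between the dye orientations was larger than that between the pools for 14 of the 25 genes (56%), beside 64.7% of all measured genes, and Birc5, Prc1 and Mki67 were among the 14. The largest gap was at Plk1, the polo-like kinase of mitotic entry (NM_011121, chr7:129313220-129313279). With GALP in Cy5 it had 0.89 and 0.91, and with GALP in Cy3 it had 0.09 and -0.13. Its mean of 0.44 ± 0.07 (adjusted p 0.382, limma) came with a small spread between the pools, and both pools held the gap. The Cy5 arrays alone would call Plk1 higher, the only call among these genes there, and the Cy3 arrays alone would call none. These values depended on the processing of a dim probe, with processed signals of 58 to 129. With normexp and loess, Plk1 had 0.16 and 0.12 with GALP in Cy5 and 0.05 and 0.02 with GALP in Cy3. The mean there was 0.09.

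The median gap between the orientations, without sign, was 0.16 over the 25 genes and 0.18 over all measured genes. The arrays with GALP in Cy5 gave the higher ratio in both pools for 13 genes (52%), beside 43.5% of all, and those with GALP in Cy3 for 7 (28%), beside 26% of all. On the Cy5 arrays alone, 19 of the 25 genes were above 0 in both pools, beside 38.8% of all measured genes. On the Cy3 arrays alone this held for 9, beside 27.7% of all. The median of the 25 genes there was 0.05, beside -0.05 over all measured genes. Ccnd1, Ccne1, Tk1, Birc5, Prc1 and Mki67 were among the genes above 0 in both pools under each orientation.

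**Figure D4:**
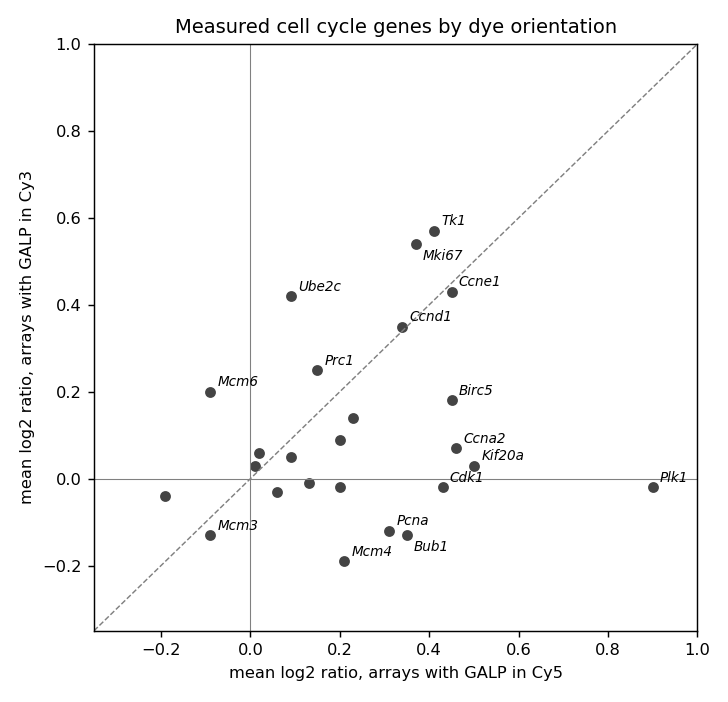
Mean log2 ratio of each measured gene on the arrays with GALP in Cy5 (horizontal axis) and in Cy3 (vertical axis), with equal values on the dashed line. Plk1 lies farthest from the line, with a difference of 0.92, while Ccnd1 and Ccne1 lie on or next to it.

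The other genes of the pathway were taken from 7 lists with 122 genes on the array, of which 80 were measured. The rule of the methods called none of the 80, beside 0.175% of all measured genes higher and 0.342% lower. On all 4 arrays 15 were higher (18.8%, beside 12.8% of all) and 13 lower (16.2%, beside 14.5% of all), which are the shares to read the counts of each list against. The E2F, RB and DREAM factors, which switch cell cycle genes on and off, had a median of -0.05 over 14 measured genes, with 1 higher and 2 lower on all arrays. E2f2, an activating E2F, had -0.30 and -0.67 in the greater-loss and less-loss pools, and E2f8, a repressing E2F, had 0.30 and 0.21. The other cyclins and kinases had a median of 0.06 over 9 genes, with 1 higher and 2 lower. The CDK-binding proteins Cks1b and Cks2 were the lower genes, with means of -0.18 ± 0.08 and -0.11 ± 0.01.

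The origin and replication fork genes had a median below 0. It was -0.07 over 26 measured genes, with 2 higher and 9 lower on all 4 arrays. The origin recognition subunits Orc5 and Orc3 had the largest means of one direction, with -0.45 ± 0.29 and -0.30 ± 0.01. The kinetochore and checkpoint genes had a median of 0.03 over 12 genes, with 3 higher and 0 lower. Of these, Cdca5, sororin, which holds sister chromatids together, was well above background in 4 GALP channels but only 2 control channels, those of the arrays with GALP in Cy3, where it had 0.29 and 0.42. The kinetochore motor Cenpe had 0.35 and 0.87 in the pools. Of the 17 spindle and cytokinesis genes only 4 were measured, with a median of 0.15, and Stmn1, a microtubule-destabilizing protein, had 0.36 ± 0.09.

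The CDK inhibitors, which brake the cycle, had a median of 0.11 over 5 genes. Cdkn1a, p21, was higher on all 4 arrays, with 0.75 and 0.48 in the greater-loss pool and 0.21 and 0.11 in the less-loss pool. Cdkn1a and Ccnd1 thus had the larger value in the same pool. This is not particular to the pair, since the median of the 25 cell cycle genes was also larger there, with 0.22 beside 0.10. The hepatocyte mitogens and receptors had a median of 0.18 over 10 measured genes, with 6 higher and 0 lower on all 4 arrays. The 6 do not share 1 role, since Tgfb1 and its receptor Tgfbr2 are among them, with means of 0.26 ± 0.19 and 0.21 ± 0.13, and TGF-β is known to restrain hepatocyte growth. Il6ra, a receptor subunit for interleukin 6, had 0.71 and 0.48 in the pools, and the transcription factor Myc had 0.43 and 0.24. The ligands Areg, Ereg and Il6 were well above background in no channel.

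**Figure D5:**
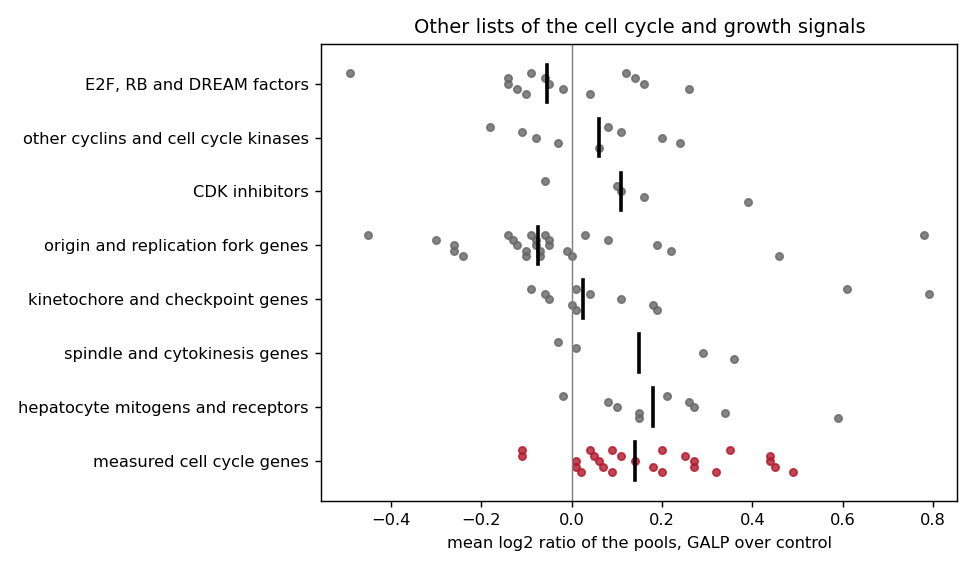
Mean log2 ratio of the pools (horizontal axis) for each measured gene of the 7 other lists (grey) and for the 25 measured cell cycle genes (red), with a black bar at the median of each list. The medians run from -0.07 for origin and replication fork genes to 0.18 for hepatocyte mitogens and receptors.

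Markers of liver and other cells were read beside these genes. On all 4 arrays, 12.8% of all measured genes were higher and 14.5% lower, the shares to read the counts of each marker list against. Of the hepatocyte markers 7 of 7 were measured, 3 higher and 1 lower on all 4 arrays, with a median of 0.05 and summed signals of 174189 to 253502 in GALP and 167745 to 248643 in control channels. The Kupffer cell and macrophage markers had a median of 0.27 (4 of 7 measured genes higher and 0 lower on all 4 arrays, sums of 25696 to 31393 against 22788 to 25547), and Marco, a scavenger receptor, was called with 0.87 ± 0.25. Of its genes without 1 direction, Csf1r had 0.21 and 0.34 in the pools, Clec4f -0.12 and 0.11, and Vsig4 -0.25 and 0.12. The stellate cell markers had 0.19 (4 of 7 higher and 0 lower, 5105 to 6762 against 4451 to 5501). The endothelial markers had 0.10 (1 of 8 higher and 1 lower, 22030 to 27388 against 22428 to 31120), and Lyve1, a hyaluronan receptor, was called with 0.74 ± 0.05. The part of these cells in the ratios of the cell cycle genes was not tested.

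Other lists of cells were low or differed between the pools. The T and B lymphocyte markers had -0.03 (3 of 8 measured, sums of 349 to 927 against 398 to 895, with Cd4 and Cd79a above background in no channel). The erythroid markers had -0.15 (3 of 6 measured and all lower on all 4 arrays, 49282 to 56763 against 53420 to 60680). Neutrophil markers had 0.15 (2 of 7 measured, 1649 to 1857 against 1427 to 1796). Cholangiocyte markers had -0.12 (4 of 6 measured, 6112 to 10570 against 6864 to 7826). The pancreatic acinar markers (7 of 7 measured, none with 1 direction on all 4 arrays, median of -1.37) summed to 5800 and 8706 in the greater-loss pool and to 109859 and 114099 in the less-loss pool, beside 61202 to 80785 in the control channels. The stomach and intestine markers had -2.60 (4 of 12 measured). They summed to 404 and 427 in the greater-loss pool and to 3365 and 3949 in the less-loss pool, beside 2755 to 3180 in the control channels. Tff2, a trefoil peptide of the stomach, had -3.79 and 0.68 in the pools, while Gkn2 and Tff1, which are secreted by the stomach, were called lower. The part of this tissue in the ratios of the cell cycle genes was not tested.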

How the data were processed

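Liver RNA of 4 dual-colour Agilent arrays was analysed, with the groups taken from the sample labels. Per the file headers, the authors ran Feature Extraction 12.0.3.1 (the labels name 11.0.1.1) with background subtraction and LOWESS dye normalization, which gives a processed intensity per channel. Each spot has a deposited log10 ratio of Cy5 over Cy3, and the deposited p-value comes from the error model of that software for 1 array. The deposited series table holds log10 ratios turned to GALP over control. All ratios were put on the log2 scale as GALP over control. There were 43379 spots an array, and precision is limited by the number of pools, not of spots or arrays. Spots with an outlier mark (232 to 319 per array) were left out, spots of 1 probe were averaged, and then the arrays of a pool, which carry the same extracts. In the labels the control channels carry a weight loss group as well. The paper has 1 control pool, so the control counts as 1 sample here. The pools of mice are the replicates. The spread among mice within a pool is not seen.

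GALP was tested with limma 3.58.1 (R 4.3.3, lmFit and eBayes on both pool ratios against 0, 1 residual degree of freedom, Benjamini-Hochberg adjustment over 41037 probes). A gene at background on 1 side of a pool was reported as a limit, the brighter processed signals against the lowest signal well above background of each array. The scripts were tested on simulated data. Positions of probes are on mm9, as the files give them, and exon or UTR annotation of that build was not used here. Promoter windows are from RefSeq on GRCm38.p6, and no coordinates were carried between the builds.

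The genes, the lists, the markers and the rules were chosen with earlier results of these data known. Values on the 4 arrays are given for measured genes that were called, kept 1 direction on all 4 arrays, or had opposite directions in the pools on both arrays of each. Array values of Plk1, Ccna2, Cdk1 and Ube2c, and the values of Tgfb1, Tgfbr2, Tff2, Csf1r, Clec4f and Vsig4, were added after they were seen. Of each pathway list, the called genes or else the 2 genes with the largest mean among those with 1 direction are named, and of each marker list the called genes. The alternatives were normexp background correction (offset 50) with loess, centring on the median, the series table, outlier marks ignored, no filter or a stricter one on background, the mean over the probes of a gene, 1 dye orientation at a time, 1 pool at a time, other p rules, and for limma a signal filter and an intensity trend. Other software was Python 3.11.15, numpy 2.4.6, pandas 2.3.3 and matplotlib 3.10.9.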

Additional observations from a re-analysis of the deposited data

Results flagged for a closer look

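Several values moved in opposite directions in the pools, on both arrays of each, and with 1 pool of each kind the differences were not tested. The difference, greater minus less weight loss, was 0.39 on the log2 scale for Cdc20 (0.22 and -0.18 in the pools). Among the medians of gene lists it was 0.07 for the other cyclins and cell cycle kinases (0.06 and -0.01) and 0.47 for the neutrophil markers (0.39 and -0.08, from 2 measured genes). The pancreatic acinar markers had the largest such difference, at -4.30 (-3.46 and 0.84).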

How the results depend on the processing

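Of 69 summary values under the alternatives, 59 stayed within 1.5 times the reported count or within the spread between the pools. Many of the 69 are counts of called genes or of genes passing limma, which were 0 in the main analysis. The limma counts were 0 throughout, so the 59 do not measure stability. With both pools kept, no gene was called higher or lower, except that the Cy5 arrays alone gave 1 gene called higher (Plk1). Leaving out a pool gave 0 to 1 called higher (Tk1, without the pool with less weight loss) and a median of 0.10 to 0.22. On the remaining arrays 11 to 14 were higher and 1 to 3 lower. A direction is kept more easily on fewer arrays, and the shares over all genes are not given here. These counts thus cannot be set beside those on 4 arrays. With the Cy5 arrays alone 19 genes were higher, beside 38.8% of all measured genes, and 3 were lower, beside 30%. With the Cy3 arrays alone 4 were lower, beside 42.9% of all. Mcm3, the only gene lower on all 4 arrays, dropped out with normexp and loess and with the mean over all probes of a gene, which left 0. The median log2 ratio lay between 0.05 (Cy3 arrays alone, beside -0.05 over all measured genes) and 0.22. Of 274 values of single genes, 246 moved by less than the spread between the pools. That count does not measure stability. Apart from rounding, leaving out a pool always moves a mean by less than this spread. The background filters and the series table also repeat the main ratios. Among the 274 values 18 changed sign, and 13 of the 25 genes kept their sign throughout. Mki67 went from 0.45 to 0.07 with normexp and loess, and Plk1 from 0.44 to -0.02 with the Cy3 arrays alone. The cause was not tested. No paired analysis was possible because each pool is 1 sample of its group and the replicate numbers pair nothing beyond the shared control. The depth limit of an array is its background, and 10 of the 35 genes could not be read on every array.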
